A study of Homo sapiens with 21 samples.

Results

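The liver cancer stem cell surface markers are 10 genes whose proteins are used as handles to sort tumour-initiating cells from liver tumours: EPCAM, PROM1 (CD133), CD44, CD24, ALCAM (CD166), THY1 (CD90), ANPEP (CD13), NT5E (CD73), ENG (CD105) and KIT (CD117). They were found by symbol, and all 10 of 10 were listed, among 43612 genes named in any raw table. Total RNA from 21 untreated human cancer lines, all established, was hybridised to Illumina BeadChips, glass arrays of probe-coated beads, with 1 array per line. Of these, 11 were hepatocellular carcinoma (HCC) lines: SNU-475, SNU-886, SNU-739, SNU-423, PLC/PRF/5, Huh-1, JHH-6, JHH-4, SK-HEP-1, Hep3B and HLF. Another 5 came from lung cancer (Calu-1, Calu-3, NCI-H1299, NCI-H596 and Malme-3M) and 5 from pancreatic cancer (Capan-1, Capan-2, BxPC-3, MIA-PaCa-2 and AsPC-1). The labels name neither a genotype nor a passage for any line. Each line descends from 1 tumour and was read once, so the p-value of a comparison between groups measures the spread between lines.

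None of these proteins is made by stem cells alone. EPCAM, CD24 and PROM1 sit on epithelial and progenitor cells, and in adult liver EPCAM is found on bile duct and progenitor cells but hardly on mature hepatocytes. THY1, NT5E and ENG together are the classical surface set of mesenchymal stromal cells, and CD44 is shared by both kinds of cell. A marker phenotype is therefore read as a combination and not from 1 gene. An array reads RNA from the whole culture and not protein on the surface. A lower level in fewer cells and a lower level in every cell cannot be told apart.

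The values below are levels on the log2 normalized intensity scale, with HCC lines and the other lines normalized apart because they were read on different array designs. Beside a level stands the detection p as the authors deposited it, which sets a gene against the negative controls of its array. How it was computed is not stated, and it does not follow the printed signal alone, since some bright genes miss the threshold. Here a marker is called detected where that p is under 0.05. The mean control signal, as estimated from those p-values, was 85.82 to 176.7 intensity units in HCC lines, against 113.4 to 139.8 in lung and pancreatic lines. Detected genes made up 24.9% of all genes in Hep3B and 32.6% to 35.1% in the other HCC lines, against 40.7% to 43.7% in lung and pancreatic lines. Levels of different genes come from different probes and are not ranked against each other.

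Some libraries departed in part from what their names are known for. The library labelled Hep3B had the weakest signal, did not detect KRT8 (detection p 0.14) or KRT18 (detection p 0.46), the keratins of hepatocytes, and had NAPSA, a lung protease, at 13.57. It did detect 4 of 9 hepatocyte markers: ALB (7.74), TTR (6.94), SERPINA1 (9.31) and HNF4A (6.17). In this weak library a level of 7.29, read for NT5E, stood for only 1.23 times background, and TTR and HNF4A lay below that level. Of the Hep3B genes at 10 or more times the background, 58 of 970 (5.98%) missed the detection threshold, against 2.16% to 3.03% in the other HCC lines. The library labelled Malme-3M, a name known for a melanoma line but given as lung, had 1 of 6 melanocyte markers detected, PMEL at 7.39. PMEL was also detected in the lung lines NCI-H1299 and Calu-1. In Malme-3M the markers MLANA, TYR, DCT, SOX10 and MITF were below detection, and the epithelial gene CDH1 was at 11.19. The summed melanocyte level of Malme-3M was 35.48, against 30.54 to 33.49 in the other lung lines. The library labelled Calu-3 had CDH1 below detection (4.87) with the mesenchymal filament gene VIM at 15.23, but the keratin genes KRT8 (11.11), KRT18, KRT19 and KRT7 were detected. The library labelled Capan-2 had those 4 keratin genes below detection with VIM at 15.45, but CDH1 (7.52) and the pancreatic genes PDX1 (6.73) and MUC1 (7.98) were detected. Hepatocyte markers were detected in 0 to 9 of 9 per HCC line, with 9 in Huh-1 and in PLC/PRF/5 and 0 in SNU-739. NKX2-1 and SFTPC were below detection in all 5 lung lines, and PTPRC, the pan-leukocyte gene, in all 21 lines.

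CD44, the hyaluronan receptor, and NT5E, the ectoenzyme that makes adenosine from AMP, were the 2 members whose levels moved together across lines in both sets, as shown further on. Their promoter sequences are printed for that reason. Of the 10 members, 8 had an entry in the RefSeq promoter table (GRCh38.p14); EPCAM and THY1 had none. The 250 bases before the annotated start are given 5′ to 3′ on the gene's own strand. Capitals mark GGGCGG, the core letters of a GC box, or its reverse complement CCGCCC.
CD44, chr11:35138921-35139170, plus strand: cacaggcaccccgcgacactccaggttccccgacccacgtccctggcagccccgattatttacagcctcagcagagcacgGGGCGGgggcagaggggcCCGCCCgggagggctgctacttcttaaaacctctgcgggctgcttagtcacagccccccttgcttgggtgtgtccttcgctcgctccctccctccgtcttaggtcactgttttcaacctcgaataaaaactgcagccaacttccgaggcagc
NT5E, chr6:85449833-85450082, plus strand: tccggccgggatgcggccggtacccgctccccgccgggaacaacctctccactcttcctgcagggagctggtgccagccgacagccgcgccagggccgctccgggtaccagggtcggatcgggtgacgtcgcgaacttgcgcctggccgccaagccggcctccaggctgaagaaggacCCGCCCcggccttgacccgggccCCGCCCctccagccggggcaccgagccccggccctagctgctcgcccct
The CD44 window held 2 such matches, starting 170 and 152 bases before the start, and the NT5E window held 2, at 72 and 49 bases before it. At least 1 match was found in 42.6% of 35116 promoter windows of this length, so the matches are common letters. Guanine and cytosine made up 62.4% of the CD44 window and 75.2% of the NT5E window, against a median of 58.0% over all windows. The KIT window had 34 CpG dinucleotides and the ENG window 7, against a median of 11.

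Over the 11 HCC lines, 79 of 110 combinations of a marker and a line were detected (71.8%), and 66 of 110 at a detection p under 0.01. The number of markers detected per line ran from 3 in Hep3B to 10 in SNU-739. SNU-475 had 9, and both SNU-739 and SNU-475 still had 9 at the stricter threshold. The stricter counts are not like for like, because detection p was given unrounded for SNU-475 and rounded to hundredths for the other HCC lines. In SNU-475 PROM1 (0.00922) and ALCAM (0.00659) would round to 0.01 and miss the stricter threshold. Hep3B had CD44, CD24 and NT5E, and only CD24 at the stricter threshold. PLC/PRF/5 had 5 markers: PROM1, CD24, ALCAM, ANPEP and NT5E. The map of levels in HCC lines shows these combinations column by column.

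**Figure D1:**
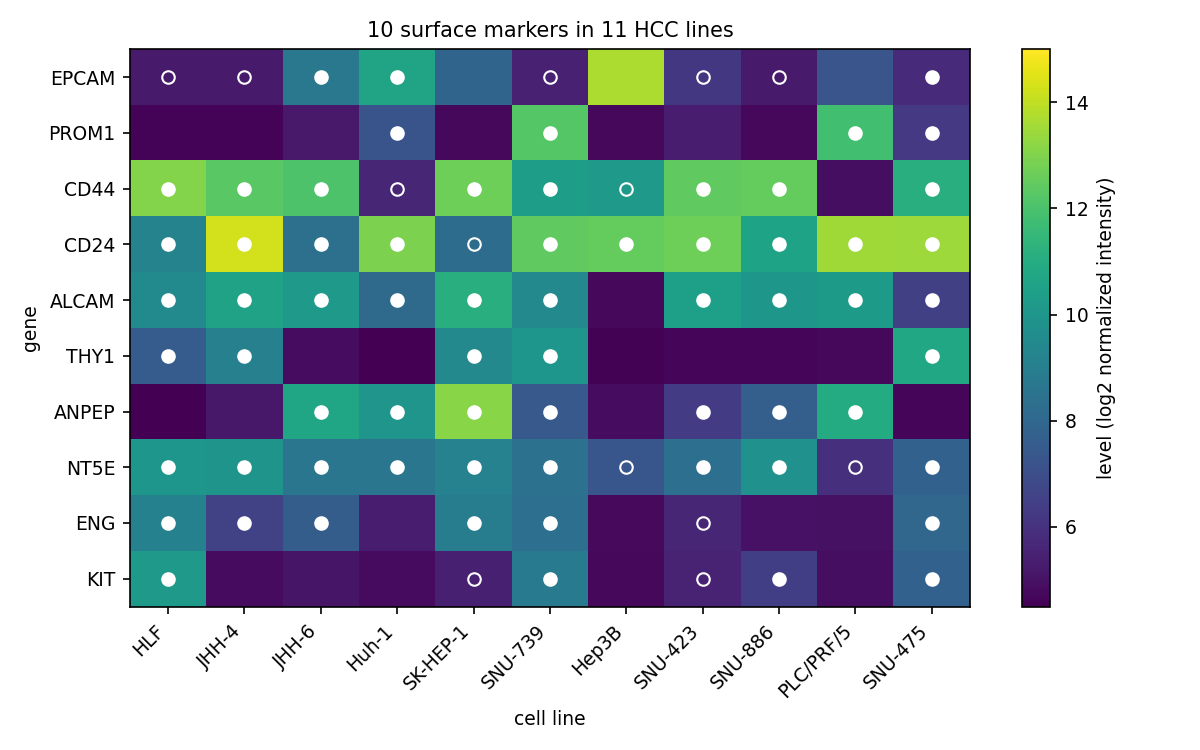
Level of each marker (rows) in each HCC line (columns), coloured by log2 normalized intensity. A filled white dot marks a detection p under 0.01, a ring one from 0.01 to under 0.05, and no mark a marker that was not detected. The detection p of SNU-475 is unrounded and that of the other lines rounded to hundredths. EPCAM in Hep3B is bright (13.70) but unmarked.

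EPCAM, a homophilic adhesion protein of epithelia, was listed in the HCC tables under its older symbol TACSTD1. Its level was 5.26 at the lowest (JHH-4), 6.20 at the median and 13.70 at the highest (Hep3B). The Hep3B value had a raw intensity of 6011, which is 36.0 times the mean of the negative controls, yet its detection p was 0.47. The other bright lines were Huh-1 at 10.63 (16.1 times background) and JHH-6 at 8.70 (5.21 times background), each with a detection p of 0. EPCAM passed detection in 8 of 11 HCC lines, but in 6 of these, HLF, JHH-4, SNU-739, SNU-423, SNU-886 and SNU-475, the signal was at most 1.59 times background. At a detection p under 0.01 it was detected in 3 lines: JHH-6, Huh-1 and SNU-475. SK-HEP-1 (7.87) and PLC/PRF/5 (7.25) were not detected, with a detection p of 0.20 each. The count of HCC lines with EPCAM thus ran from 8 to 3 with the threshold, and Hep3B, the brightest, passed at neither.

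PROM1, a protein of membrane protrusions, was near background in most HCC lines. Its level was 4.61 at the lowest (HLF), 5.21 at the median and 12.24 at the highest (SNU-739, 49.9 times background). PLC/PRF/5 followed at 11.83 (18.5 times background), then Huh-1 at 7.21 (2.27 times) and SNU-475 at 6.26 (1.87 times, detection p 0.00922). The other 7 lines were not detected, with detection p of 0.07 to 0.69. PROM1 was therefore bright in 2 lines and weakly detected in another 2.

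The CD44 level was 10.20 to 13.04 in 9 of 11 HCC lines, with the highest in HLF (89.0 times background). The 10.20 was read in Hep3B, where the signal was only 3.13 times background (detection p 0.01) and missed the stricter threshold. The remaining 2 lines were Huh-1 at 5.61 (1.32 times background, detection p 0.01) and PLC/PRF/5 at 4.90 (1.05 times background, detection p 0.10). These 2 are also the lines in which all 9 hepatocyte markers were detected. The median over HCC lines was 12.07. Where CD44 was at its lowest, in PLC/PRF/5, PROM1 was bright. The Pearson r of CD44 with PROM1 was -0.663 (n = 11 lines, range -0.861 to -0.424 when each line was left out in turn). PROM1 was detected in only 4 of these lines, so most points pair CD44 with a PROM1 level near background. SNU-739, with the highest PROM1 level (12.24), also had CD44 detected, at 10.38. Over the lung and pancreatic lines, where PROM1 was detected in 1 line of each tissue, r was 0.0898.

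CD24, a heavily glycosylated GPI-anchored protein that binds P-selectin and Siglec-10, was detected in all 11 HCC lines. Its level was 8.22 at the lowest (SK-HEP-1, 2.61 times background, detection p 0.03), 12.52 at the median and 14.28 at the highest (JHH-4, 196 times background). Other low lines were JHH-6 at 8.36 and HLF at 9.19. CD24 has near-identical copies elsewhere in the genome, and the sources used here do not say whether its probe separates them. ALCAM, an adhesion protein that binds CD6, was detected in 10 of 11 HCC lines. Its level was 4.71 at the lowest (Hep3B, detection p 0.62), 10.07 at the median and 11.08 at the highest (SK-HEP-1). Apart from Hep3B, the lowest ALCAM level was 6.48 in SNU-475.

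THY1, a GPI-anchored glycoprotein of fibroblasts, neurons and some progenitors, split the HCC lines. It was detected in SNU-475 (10.81, 24.8 times background), SNU-739 (10.01), SK-HEP-1 (9.44), JHH-4 (9.06) and HLF (7.55, 2.62 times background). The other 6 lines lay at 4.52 to 4.85, with detection p of 0.34 to 0.89. Between these sets of lines no intermediate level was read. ENG, a coreceptor for TGF-beta family ligands, was detected in 7 of 11 lines. Its level was 4.75 at the lowest (Hep3B), 6.55 at the median and 9.11 at the highest (HLF). SK-HEP-1 (8.94), SNU-739 (8.35) and SNU-475 (7.97) came next, and all 5 lines with THY1 also had ENG.

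NT5E was detected in all 11 HCC lines. Its level was 5.91 at the lowest (PLC/PRF/5, 1.24 times background), 8.63 at the median and 10.01 at the highest (HLF, 11.5 times background). Hep3B, at 7.29, was only 1.23 times background with a detection p of 0.02. The set NT5E, ENG and THY1, which defines mesenchymal stromal cells, was complete in 5 of 11 HCC lines: HLF, JHH-4, SK-HEP-1, SNU-739 and SNU-475. The same 5 lines had the set at a detection p under 0.01, and all 5 also had CD44. Fibroblast markers were detected in 2 to 5 of 5 in these 5 lines, and in 0 to 5 of 5 in the other HCC lines, where SNU-886 had 5 and SNU-423 had 4 without THY1. The summed log2 level of that list was 28.69 to 56.95 in the 5 lines, against 25.81 to 50.40 in the other HCC lines. Their part in the combination was not tested. Of 6 endothelial markers SK-HEP-1 had 2 detected, PECAM1 (6.61) and KDR (5.79), while CDH5, the endothelial cadherin, was below detection. It did not stand apart in this list. Over all HCC lines 0 to 3 of the 6 were detected, and Huh-1 also had PECAM1 and KDR. The summed log2 level was 31.72 in SK-HEP-1, within 29.53 to 38.87 over HCC lines.

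ANPEP, a membrane aminopeptidase of bile canaliculi and myeloid cells, was detected in 7 of 11 HCC lines. Its level was 4.52 at the lowest (HLF), 7.44 at the median and 13.12 at the highest (SK-HEP-1, 54.3 times background). PLC/PRF/5 (10.95), JHH-6 (10.69) and Huh-1 (9.99) were also bright, while SNU-886 (7.67), SNU-739 (7.44) and SNU-423 (6.38) were lower. It was not detected in HLF, JHH-4, Hep3B and SNU-475. ANPEP and PROM1 were found together in 3 lines, Huh-1, SNU-739 and PLC/PRF/5, also at the stricter threshold.

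KIT, the receptor tyrosine kinase for stem cell factor, was detected in 6 of 11 HCC lines. Its level was 4.73 at the lowest (Hep3B), 5.43 at the median and 10.18 at the highest (HLF, 12.8 times background). SNU-739 had 8.80, SNU-475 had 7.76 and SNU-886 had 6.46, while SNU-423 (5.55) and SK-HEP-1 (5.43) passed only with detection p of 0.03 and 0.04. KITLG, which encodes the ligand, was detected in 9 of 11 lines, from 5.28 in SK-HEP-1 to 8.98 in Huh-1. All 6 lines with detected KIT also had detected KITLG, a gene detected in most lines. Part of this overlap was faint: SK-HEP-1 had KIT at 1.17 and KITLG at 1.14 times background, and HLF had KITLG at 1.35 times. KIT was found with THY1 in 4 lines, HLF, SK-HEP-1, SNU-739 and SNU-475.

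Over lung lines, 30 of 50 combinations of a marker and a line were detected (60.0%), and over pancreatic lines 27 of 50 (54.0%). The number of markers per line was 5 to 7 in lung and 4 to 6 in pancreatic lines. EPCAM was 10.10 in Calu-3, 13.82 in NCI-H596, 5.87 in NCI-H1299 (detection p 0.06), 13.40 in Malme-3M and 8.53 in Calu-1, against 5.34 in MIA-PaCa-2 (detection p 0.29), 14.75 in AsPC-1, 13.03 in BxPC-3, 11.43 in Capan-2 and 14.45 in Capan-1. One line of each tissue was at background, and the groups overlapped. A separate TACSTD1 row of the same table differed from the EPCAM row by -0.06 to 0.51 on the log2 scale, and it passed detection in NCI-H1299 (detection p 0.03).

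PROM1 was above background in 1 lung line, NCI-H596 at 6.84, and in 1 pancreatic line, Capan-1 at 12.21 (39.6 times background). The remaining lines lay at 4.87 to 5.18 in lung and 4.88 to 5.33 in pancreas. CD44 was 13.17 in Calu-3, 10.88 in NCI-H596, 12.47 in NCI-H1299, 11.91 in Malme-3M and 13.56 in Calu-1, against 13.49 in MIA-PaCa-2, 12.80 in AsPC-1, 13.41 in BxPC-3, 4.98 in Capan-2 (0.927 times background) and 12.81 in Capan-1. Every line but the library labelled Capan-2 had CD44. CD24 was 5.41 in Calu-3, 13.97 in NCI-H596, 5.84 in NCI-H1299, 13.10 in Malme-3M and 5.41 in Calu-1, against 5.37 in MIA-PaCa-2, 5.01 in AsPC-1, 13.51 in BxPC-3, 7.84 in Capan-2 and 10.13 in Capan-1. Thus 2 of 5 lung and 3 of 5 pancreatic lines had CD24, and AsPC-1, with the highest EPCAM level, had none detected.

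**Figure D2:**
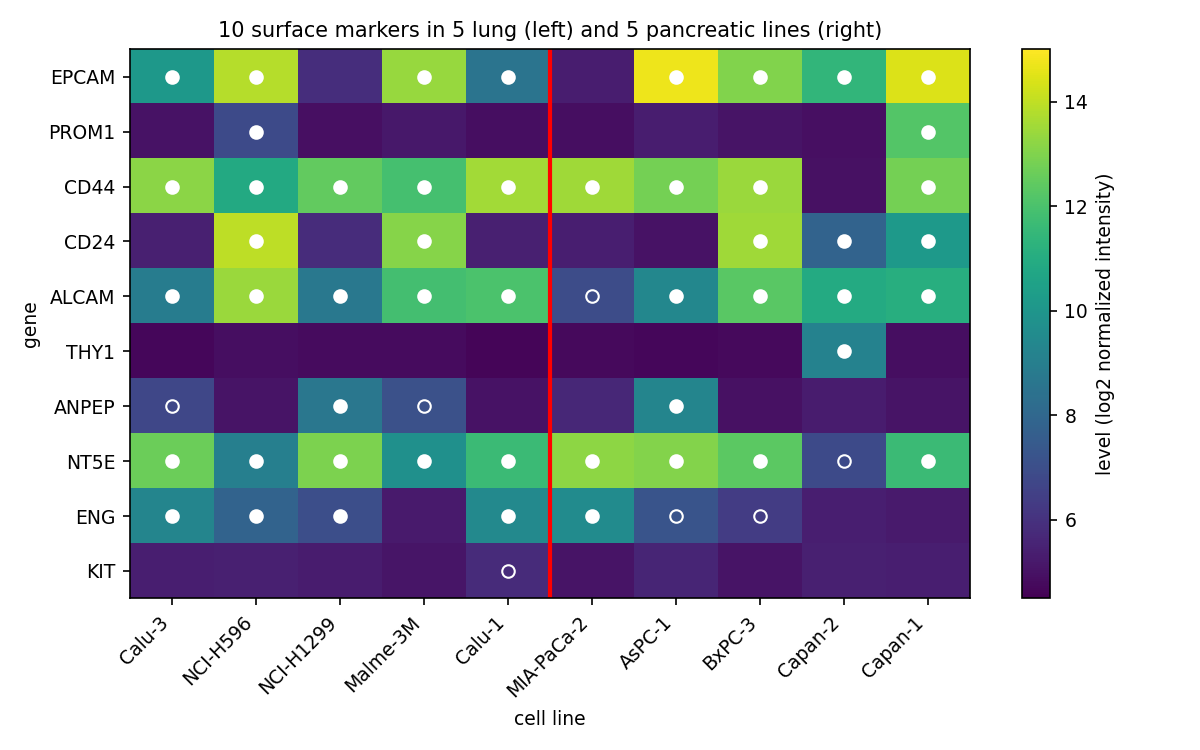
Level of each marker (rows) in the 5 lung lines, left of the red line, and the 5 pancreatic lines, right of it, coloured by log2 normalized intensity with the same dots and rings for detection. CD44, ALCAM and NT5E are marked in nearly all columns, THY1 in Capan-2 alone and KIT in Calu-1 alone.

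ALCAM was detected in all 10 of these lines. It was 8.90 in Calu-3, 13.43 in NCI-H596, 8.71 in NCI-H1299, 11.87 in Malme-3M and 12.01 in Calu-1, against 6.96 in MIA-PaCa-2, 9.35 in AsPC-1, 12.31 in BxPC-3, 10.90 in Capan-2 and 11.07 in Capan-1. NT5E was likewise detected in all 10 lines, at 12.66 in Calu-3, 9.05 in NCI-H596, 12.93 in NCI-H1299, 9.78 in Malme-3M and 11.67 in Calu-1, against 13.20 in MIA-PaCa-2, 13.06 in AsPC-1, 12.36 in BxPC-3, 6.84 in Capan-2 and 11.67 in Capan-1. The library labelled Capan-2 was the low one for NT5E, as for CD44.

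THY1 lay at 4.66 to 4.87 in the 5 lung lines, none detected, and at 4.69 to 4.88 in 4 pancreatic lines, with 9.14 in the library labelled Capan-2 (5.26 times background). That library also had DCN at 9.55 and LUM at 10.84, matrix genes of fibroblasts, and 4 of 5 fibroblast markers detected, against 0 to 2 in the other 4 pancreatic lines, and a summed log2 level of 42.41, against 27.08 to 32.16. Their part in the THY1 level was not tested. The mean of pancreatic lines was at least 1.19-fold higher than the lung mean, with all 5 lung lines not well above background, and the gene missed the filter for testing. Here and below, such a bound takes the dimmer group at the lowest signal detected on each array.

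ENG was 9.26 in Calu-3, 7.83 in NCI-H596, 7.01 in NCI-H1299, 5.24 in Malme-3M and 9.45 in Calu-1, against 9.58 in MIA-PaCa-2, 7.24 in AsPC-1, 6.37 in BxPC-3, 5.39 in Capan-2 and 5.27 in Capan-1. It was detected in 4 lung and 3 pancreatic lines. ANPEP was detected in NCI-H1299 (8.67), Malme-3M (7.10) and Calu-3 (6.74) of the lung lines, against AsPC-1 (9.29) alone of the pancreatic lines. The other lines read 5.02 and 5.07 in lung and 4.98 to 5.67 in pancreas. KIT was 5.10 to 5.80 in lung lines, detected only in Calu-1 (detection p 0.03), and 5.04 to 5.59 in pancreatic lines with none detected.

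The set NT5E, ENG and THY1 was complete in 0 of 5 lung and 0 of 5 pancreatic lines, against 5 of 11 HCC lines. CD44 with NT5E was found in 10 of 11 HCC lines, 5 of 5 lung lines and 4 of 5 pancreatic lines, and at a detection p under 0.01 the HCC count was 8. CD44 with CD24 was found in 10 of 11 HCC lines, 2 of 5 lung lines and 2 of 5 pancreatic lines, and at a detection p under 0.01 the HCC count was 7. EPCAM with CD24 was found in 8 HCC lines, 2 lung lines and 3 pancreatic lines, and the HCC count was 3 at the stricter threshold while the others stayed at 2 and 3. PROM1 with CD44 was found in Huh-1, SNU-739 and SNU-475 of the HCC lines, and in NCI-H596 and Capan-1 of the others. At the stricter threshold the HCC count was 2, without Huh-1, where CD44 was 1.32 times background. SNU-475 stayed in that count only on its unrounded PROM1 detection p of 0.00922. These counts carry no test, and tissue is confounded with the array design in them.

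Among the 45 pairs of members, 3 had a Pearson r above 0.6 and 2 below -0.6 over the 11 HCC lines, with the same numbers, 3 and 2, over the 10 lung and pancreatic lines, where the 2 below -0.6 both involve THY1, detected in Capan-2 alone. CD44 and NT5E had r = 0.689 over HCC lines and 0.878 over lung and pancreatic lines. Leaving out each line in turn gave 0.408 to 0.874 in HCC lines and 0.797 to 0.907 in the others. PLC/PRF/5 in HCC and Capan-2 in the others were lowest in both genes, and Huh-1 had low CD44 (5.61) with a middling NT5E level (8.64). The plot of CD44 against NT5E shows these lines. Points within a set share an array design and a normalization, and the coefficients are given as descriptions.

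**Figure D3:**
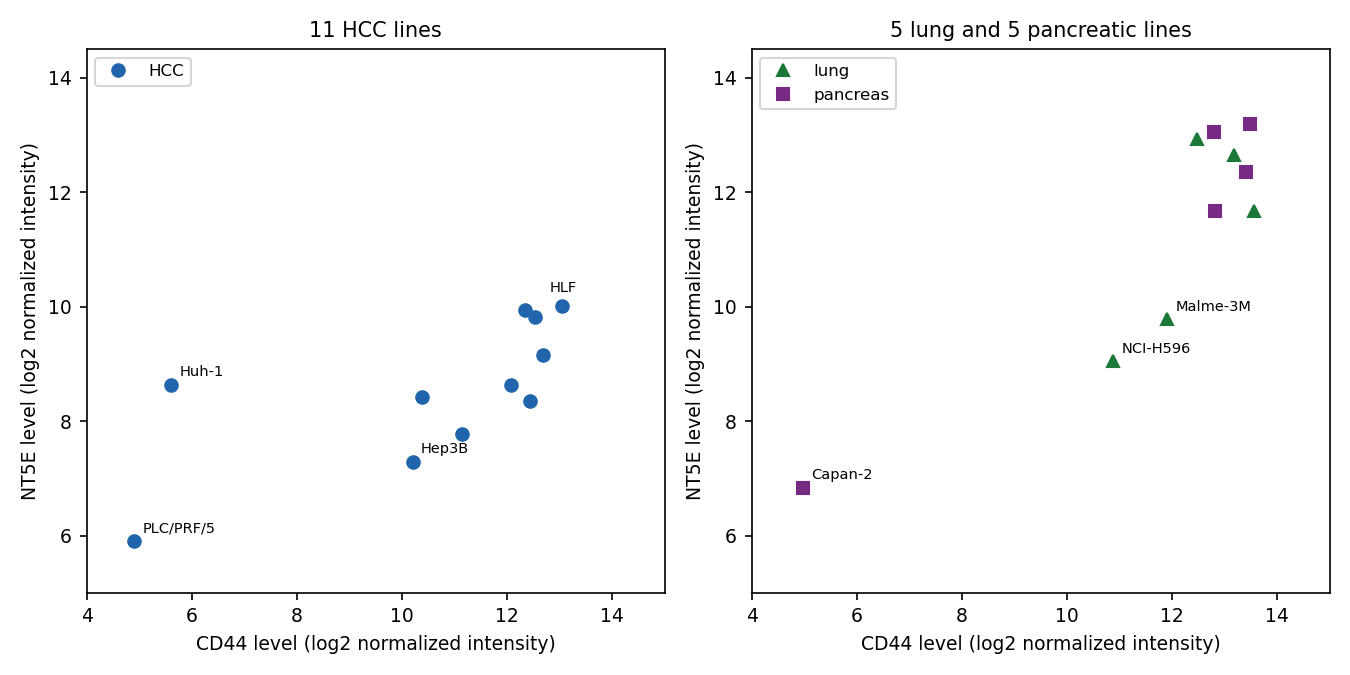
NT5E level against CD44 level, both log2 normalized intensity, with 1 point per line, for 11 HCC lines (left panel) and for 5 lung and 5 pancreatic lines (right panel). PLC/PRF/5 and Capan-2 stand at the lower left of their panels.

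THY1 and ENG had r = 0.758 over HCC lines (0.720 to 0.837 without each line in turn). ENG and KIT had r = 0.651 over HCC lines (0.516 to 0.797 without each line in turn). Over the lung and pancreatic lines THY1 and KIT were near background in all but 1 line each, so their coefficients there are left out. EPCAM and ALCAM had r = -0.616 over HCC lines, which was -0.0854 without Hep3B, and 0.636 over the others. CD44 and THY1 had r = 0.354 over HCC lines. CD24 and ALCAM had r = -0.336 over HCC lines and 0.769 over the others. Of the 45 pairs, CD44 with NT5E was the one beyond 0.6 with the same sign in both sets.

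For each member, the 3 genes most alike over the 11 HCC lines were taken by Pearson r among 15514 genes compared. CD44 was most like FHL2 (r = 0.956), MT2A (0.947) and EXOG (0.926), and over the 10 other lines these had 0.822, 0.552 and -0.0903, FHL2 being detected in none of them. CD24 was most like SCAMP3 (0.883), FOXA1 (0.787) and ALDOC (0.787), with 0.149, 0.890 and 0.268 in the other lines. FOXA1 encodes a pioneer factor of endoderm. THY1 was most like PRKD1 (0.979), FLJ35934 (0.937) and LOC375295 (0.917), and no coefficient is given for the other lines, where THY1 was detected in 1 of 10. ENG was most like CAVIN3 (0.938), FZD10 (0.898) and TOM1L2 (0.882), and CAVIN3, which encodes a protein of caveolae, had 0.809 in the other lines.

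KIT was most like MARCHF8 (0.951), MAPK8 (0.908) and KHDC1 (0.903), and no coefficient is given for the other lines, where KIT was detected in 1 of 10. PROM1 was most like MYOM1 (0.942), SNRPN (0.925) and FLJ46906 (0.919); in the other lines PROM1 was detected in 2 of 10. NT5E was most like GSDME (0.908), ZNF654 (0.899) and TRIB3 (0.875), all with a negative r in the other lines (-0.395 to -0.0691). ANPEP was most like LOC400197 (0.941), CD79B (0.898) and HS.544828 (0.881), with -0.235 to 0.328 in the other lines, where ANPEP was detected in 4 of 10 and LOC400197 in 0. EPCAM was most like SPTY2D1 (0.954), LOC442711 (0.937) and C19ORF21 (0.936), and ALCAM most like SUZ12 (0.951), C22ORF28 (0.925) and TRIM37 (0.923). Without Hep3B, 12 of the 30 genes named here remained among the 3 most alike, 1 for EPCAM and 0 for ALCAM.

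Lung lines were compared with pancreatic lines within 1 array design, with limma on 16950 genes and Benjamini-Hochberg adjustment over all of them. Of the 10 members, 7 passed the filter of detection in at least 3 lines, and 0 of 7 passed an adjusted p of 0.05. Over all genes tested 1 passed, or 0.0059%, and 0 members and 618 genes (3.65%) had an unadjusted p under 0.05. EPCAM averaged 10.34 ± 3.35 in lung lines and 11.80 ± 3.85 in pancreatic lines (SD, n = 5 each), a log2 difference of -1.46 (SE 2.03, limma adjusted p 0.9998). ENG averaged 7.76 ± 1.74 in lung lines and 6.77 ± 1.76 in pancreatic lines, a difference of 0.99 (SE 0.99), and the other 5 differences ran from -0.21 (NT5E, SE 1.26) to 0.90 (CD44, SE 1.52). The standard errors were about as large as the differences or larger, so equality was not shown. The CD44 difference was -0.73 without the library labelled Capan-2.

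**Figure D4:**
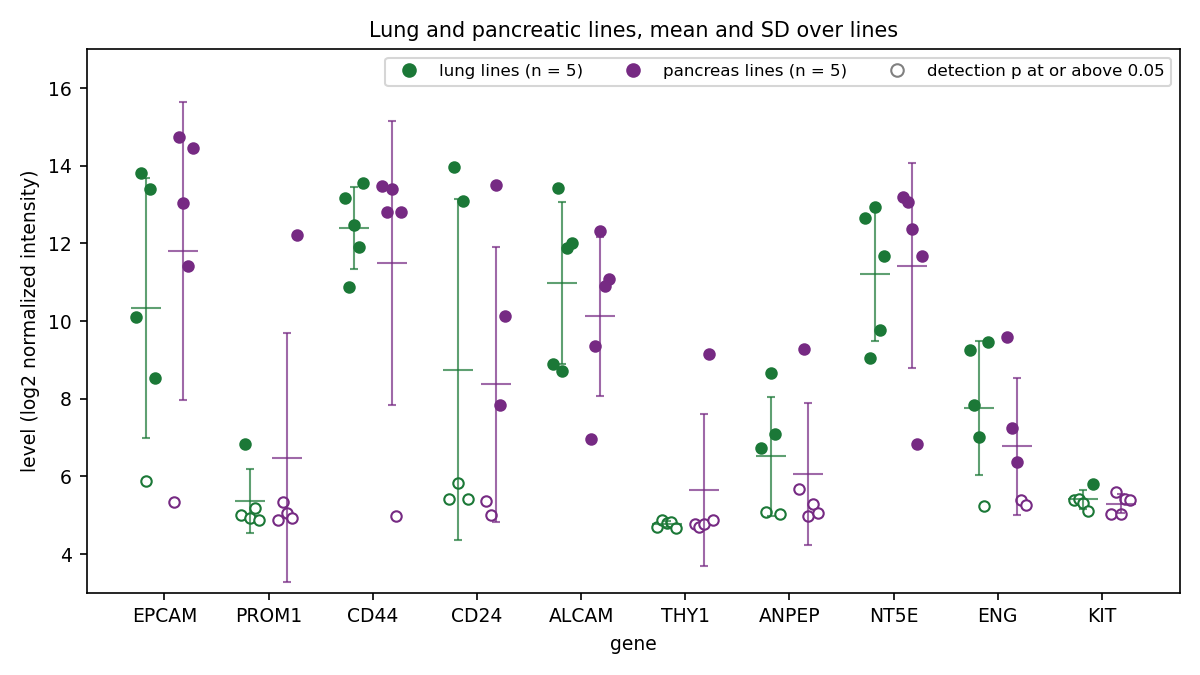
Marker levels (log2 normalized intensity) in lung lines (left of each pair) and pancreatic lines (right), with 1 point per line, open where the detection p is 0.05 or more, and a bar for the mean and SD over the 5 lines. The groups overlap for every marker.

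Of 34 partner genes of the markers (ligands, enzymes, adaptors and regulators), 25 were tested between lung and pancreatic lines and 0 passed (0 also at an unadjusted p under 0.05), with a median log2 difference of -0.13 against 0.00 over all genes. The 6 with the largest differences were SPINT2 (-1.93), SPP1 (1.91), CLDN7 (-1.62), HAS3 (1.39), ADA (-1.23) and PROM2 (-1.22). SPINT2 encodes a serine protease inhibitor of epithelia, SPP1 the CD44 ligand osteopontin, CLDN7 a claudin that binds EPCAM, HAS3 a hyaluronan synthase, ADA the enzyme that removes adenosine and PROM2 a relative of PROM1. Of 28 other stem and progenitor cell genes, 17 were tested and 0 passed, with 1 at an unadjusted p under 0.05. ALDH1A1, a retinaldehyde dehydrogenase, was detected in 0 of 5 lung lines, against 5 of 5 pancreatic lines, with means of 5.68 and 10.55, so it was at least 27.3-fold higher in pancreatic lines (limma adjusted p 0.9998, unadjusted 0.0048). That bound holds for the background correction used: the fitted difference of -4.87 was -3.46 without background correction, -3.59 on the deposited processed values and -5.59 to -3.82 on leaving out each line. KRT19 (-2.71), SOX2 (1.45), SALL4 (-1.10) and MYC (-0.93) had the next largest differences, each with overlapping groups.

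HCC lines were compared with lung and pancreatic lines after normalizing all 21 lines together on shared symbols. In this fit tissue and array design cannot be told apart, and 18.8% of 17828 genes passed, 6.64% higher and 12.1% lower in HCC lines. All 10 members were tested and 1 passed. On the joint scale the mean CD24 level over the 11 HCC lines was 12.07 ± 2.12 (SD), set against 8.46 ± 4.31 over the 5 lung and 8.07 ± 3.45 over the 5 pancreatic lines. The log2 difference was 3.81 (SE 1.24), with a limma adjusted p of 0.0365, and the HCC levels of 8.72 to 14.61 overlapped those of the other lines, 4.85 to 13.57. A count of 1 in 10 lies near the share over all genes. The median difference over the members was 0.64, with 6 of 10 above 0, against -0.03 and 48.3% over all genes.

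The CD24 call did not hold against either tissue alone, with a limma adjusted p of 0.153 against lung lines and 0.0955 against pancreatic lines. It was also lost on leaving out any one of 12 lines, JHH-4, Huh-1, SNU-739, SNU-423, PLC/PRF/5, SNU-475, Calu-3, NCI-H1299, Calu-1, MIA-PaCa-2, AsPC-1 or Capan-2 (adjusted p 0.0530 to 0.0728), and without the libraries labelled Hep3B, Malme-3M, Calu-3 and Capan-2 together (adjusted p 0.0758). NT5E had means of 9.04 ± 1.21 in HCC lines, 10.84 ± 1.77 in lung lines and 11.07 ± 2.64 in pancreatic lines, a difference of -1.91 (SE 0.72, limma adjusted p 0.0685). It passed without the library labelled Capan-2 (adjusted p 0.00357) and without NCI-H596 (adjusted p 0.041), and without the 4 libraries that stood apart the difference was -2.37 (adjusted p 0.0112). EPCAM had means of 7.80 ± 2.74 in HCC lines, 9.78 ± 3.19 in lung lines and 11.30 ± 3.65 in pancreatic lines, a difference of -2.74 (SE 1.25, limma adjusted p 0.136). Without Hep3B it was -3.37 (adjusted p 0.0393), and without MIA-PaCa-2 it was -3.51 (adjusted p 0.0381).

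**Figure D5:**
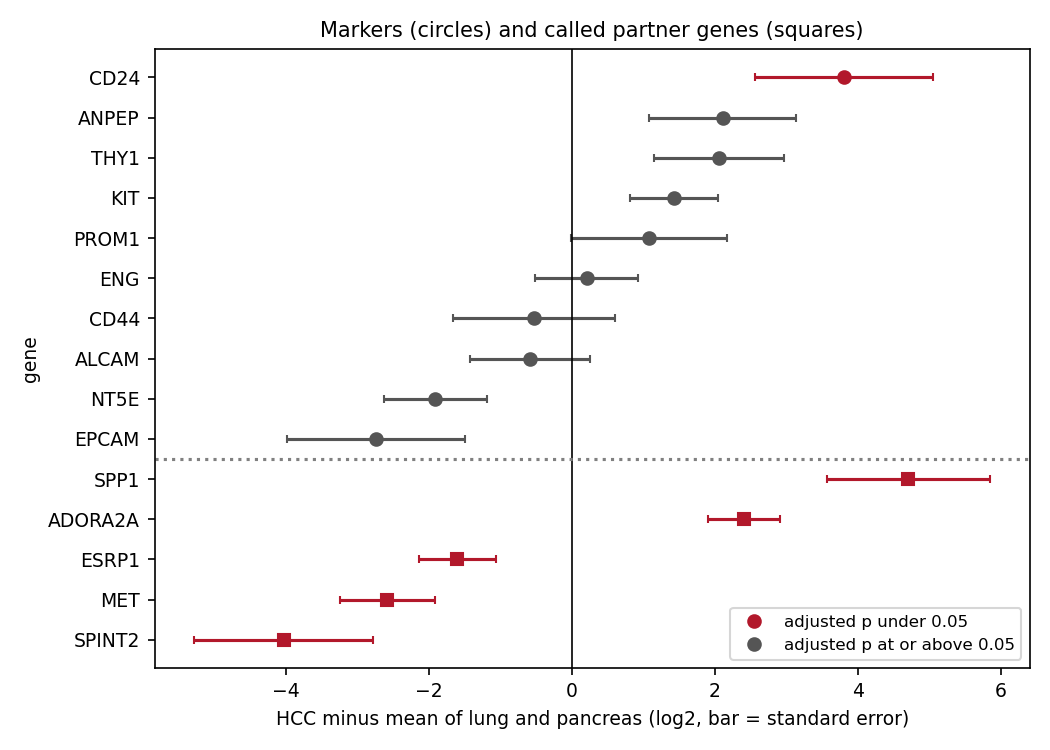
Log2 difference between HCC lines and the mean of the lung and pancreatic group means for the 10 markers (circles) and the 5 partner genes that passed (squares), with bars for the standard error; red marks a limma adjusted p under 0.05. CD24 (3.81) is the red circle, and all other markers are grey.

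The remaining 7 members did not pass in this fit. ANPEP differed by 2.11 (SE 1.03, limma adjusted p 0.164), THY1 by 2.06 (SE 0.91, adjusted p 0.122) and KIT by 1.43 (SE 0.61, adjusted p 0.111), each with a larger SD in HCC lines than in lung lines. For THY1 the SD was 2.74 in HCC lines, against 0.08 in lung lines. PROM1 differed by 1.08 (SE 1.09), ENG by 0.21 (SE 0.72), CD44 by -0.53 (SE 1.13) and ALCAM by -0.58 (SE 0.84). All members' groups overlapped.

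Of the 34 partner genes, 29 were tested in this fit, 2 were higher and 3 lower in HCC lines, with a median difference of 0.23 against -0.03 over all genes. Over all genes 6.64% were higher and 12.1% lower, so the partner counts lie near the shares over all genes. The partner and stem lists, like the members, were chosen with earlier results of these data known, so the counts are descriptions. ADORA2A, a receptor for the adenosine that NT5E makes, was detected in 11 of 11 HCC lines (6.23 to 10.31, normalized apart), against 2 of 5 lung and 1 of 5 pancreatic lines. Its difference was 2.41 (SE 0.50, limma adjusted p 0.00158). ADORA2B, another adenosine receptor on the list, was detected in 10 of 11 HCC, 5 of 5 lung and 5 of 5 pancreatic lines. The ADORA2B difference was -0.66 (SE 0.85, limma adjusted p 0.63). ENTPD1, the enzyme that supplies AMP to NT5E, was detected in 5 of 11 HCC lines, against 5 of 5 lung and 5 of 5 pancreatic lines. Its difference did not pass (-0.39, SE 0.40, limma adjusted p 0.533). ENTPD1 reached 5.24 times background in JHH-4, an HCC line, and at most 2.09 times in the lung and pancreatic lines (AsPC-1). SPP1 was detected in 11 of 11 HCC lines, from 6.76 in PLC/PRF/5 to 15.15 in Huh-1, against 2 of 5 lung lines (NCI-H1299 and Calu-1) and 3 of 5 pancreatic lines. Its difference was 4.71 (SE 1.14, limma adjusted p 0.00571), with an adjusted p of 0.101 against lung lines alone and 0.0515 without the 4 libraries that stood apart.

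MET, a receptor kinase that acts with CD44 variants, was detected in 9 of 11 HCC lines, with PLC/PRF/5 (4.47) and Hep3B (4.55) at background, against all 10 lung and pancreatic lines. Its difference was -2.58 (SE 0.66, limma adjusted p 0.00896). SPINT2 differed by -4.03 (SE 1.25, limma adjusted p 0.0283), a call lost without Calu-3, NCI-H596, Malme-3M, BxPC-3 or Capan-1 (adjusted p 0.0508 to 0.0563), and against lung lines alone (-3.07, adjusted p 0.238). ESRP1, an epithelial splicing factor that sets the exons of CD44, was not well above background in any of 11 HCC lines. It was detected in 2 of 5 lung and 2 of 5 pancreatic lines, and the mean of those groups was at least 2.60-fold higher (limma adjusted p 0.0438). That bound holds for the settings used. The fitted ESRP1 difference of -1.60 was -1.78 to -1.14 on leaving out each line and -1.94 to -0.13 under the other alternatives. The ESRP1 call was lost on leaving out 14 of the 21 lines one at a time, namely every HCC line but Hep3B, and NCI-H596, Malme-3M, BxPC-3 and Capan-1 (adjusted p 0.0538 to 0.0821), and under 8 of 9 other alternatives (adjusted p 0.0527 to 0.291). Among the 28 other stem and progenitor cell genes, 25 were tested, 0 were higher and 2 lower in HCC lines, against 6.64% and 12.1% of all genes. The 2 lower genes were CD9, a tetraspanin (-2.17, SE 0.50, limma adjusted p 0.00411), and KLF4, a reprogramming factor (-2.40, SE 0.56, limma adjusted p 0.00466). KDM1A, the LSD1 gene around which the series was set up, differed by 0.20 (SE 0.21, limma adjusted p 0.552).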

How the data were processed

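Total RNA of 21 lines was read on arrays and processed by the authors in BeadStudio, per the submitters' processing notes. Its version, the summary of several probes and the genome build were not given in the sources. Per the file headers, the raw tables deposited give an intensity and a detection p-value for each gene; the authors also deposited processed intensity values, used as an alternative. SNU-475 came in a table of its own and was normalized with the other HCC lines.

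The mean and SD of the background were taken from a line through signal medians against normal quantiles of the detection p-value. With them, normexp correction was run in limma 3.58.1 (R 4.3.3), an offset of 16 was added, and values were quantile-normalized and taken to log2. Limma's own fit from detection p-values (neqc) left a range of 0.57 log2 in the lung and pancreatic table and is kept as an alternative only. Tests were lmFit and eBayes on genes detected (p under 0.05) in at least 3 lines, and were tested on simulated data. Fold changes depend on the offset. The number of arrays limits the precision.

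Named were all 10 members, KDM1A, the partner and stem genes past the threshold or else up to 6 with the largest difference, and the 3 genes most alike per member; 1 gene that this rule names is not reported here. Symbols were updated through RefSeq. Members, lists and tests were chosen with earlier results of these data known. Alternatives changed the background, scaling, filter, offset, source of values, groups and lines.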

Additional observations from a re-analysis of the deposited data

Results flagged for a closer look

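Within the 5 lung and the 5 pancreatic lines, 20 groups of a marker and a tissue were searched for a line far from the others, by the gap to its nearest neighbour as a share of the group's range, against Dixon's 95% critical value of 0.71 for 5 lines. Of these, 6 had such a line. The critical value assumes normally spread values, which a group lying at background but for 1 line does not have. In the flagged PROM1, THY1 and ANPEP groups only that 1 line was detected. The library labelled Capan-2 enters several flags, so the count is not set against a chance rate. HCC lines, 11 in number, were not searched. NCI-H596 was far above the other lung lines in PROM1 (0.846, level 6.84). Capan-1 was far above the other pancreatic lines in PROM1 (0.938, level 12.21), and AsPC-1 in ANPEP (0.84, level 9.29). The library labelled Capan-2 accounted for the other 3: it was low in CD44 (0.919, level 4.98) and NT5E (0.759, level 6.84) and high in THY1 (0.956, level 9.14).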

How the results depend on the processing

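No paired analysis was possible because the labels give no replicate numbers and each line was read once. Between lung and pancreatic lines, 0 members and 0 partner genes were called under every alternative run. The count over all genes, 1, was 2 with detection p under 0.01 in 5 lines, 3 without the libraries labelled Calu-3, Malme-3M and Capan-2 (chosen after seeing the data) and 1 to 4 on leaving out each line. Signs turned for CD44 (-0.00754 with neqc, -0.82 without those 3 libraries, -0.73 to 1.40 leaving out each line), CD24 (-0.10 without the 3, -0.93 to 1.66 leaving out each line), ANPEP (-8.26e-05 with neqc, -0.08 to 1.26) and NT5E (-1.35 to 0.33), so none of these differences has a settled direction. The same held for MYC (0.01 with neqc, -1.57 to 0.27), CLDN7 (0.02 with neqc) and KDM1A (-0.18 without the 3, -0.17 to 0.20).

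Between HCC and the other lines, the count of 3344 genes was 2229 with neqc, 1675 with the stricter detection filter, 1806 against lung alone, 2137 against pancreas alone and 2895 to 3863 leaving out each line. Members called numbered 2 with median scaling, 0 against lung alone, 0 against pancreas alone and 0 to 2 leaving out each line. Partner genes called numbered 1 with neqc, 1 against lung alone and 4 to 7 leaving out each line. CD24 lost its call under 12 of 21 left-out lines and 6 of 10 other alternatives, and kept its direction in all. NT5E gained a call under 2 of 21 and 5 of 10. KDM1A turned to -0.05 with median scaling. ADORA2A, SPP1, MET, CD9 and KLF4 kept their calls on leaving out each line, but each lost it under 1 to 3 other alternatives. ESRP1 lost its call under 8 of 9 and SPINT2 under 2 of 10 (neqc adjusted p 0.0971). CD44 turned at 0.06 without PLC/PRF/5 (lowest -1.32), and ENG was -0.26 against lung alone and -0.09 to 0.55 leaving out each line. Of the 30 most alike genes, 12 remained without Hep3B. The cause of these changes was not tested. Faint markers, such as EPCAM in 6 HCC lines, lie within 1.59 times background, where detection is the limit.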
